A study of Rattus norvegicus with 9 samples.

Results

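The effect of PF pretreatment on antigen-stimulated RBL-2H3 cells was examined by comparing 3 samples labelled PF with 3 samples labelled IgE/DNP (DNP). These are 6 of the 9 samples of the series and were chosen by their titles. The other 3 samples (Ctrl) are given here as levels only. RBL-2H3 is a rat basophilic leukemia line that is used as a model of mast cells (MCs), and the labels list its tissue as peripheral blood and its cell type as blood corpuscle. In the DNP samples, anti-DNP IgE was given at 50 ng/mL over 12 h and the antigen DNP-HSA followed at 100 ng/mL for 4 h. The PF samples received the same IgE and antigen, with a PF pretreatment of 1 h between them. What PF stands for is stated neither in the labels nor in the text of the paper, so its nature, dose and vehicle are not given in the sources used here. The Ctrl samples are called untreated in one label field, while their treatment protocol gives the same sensitization and stimulation as for DNP.

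A further point in the labels bears on every result. One field gives stimulation times of 4, 5 and 6 h for PF replicates 1, 2 and 3, whereas the treatment protocol gives 4 h for all of them. If the former is right, a longer stimulation in PF replicates 2 and 3 cannot be told apart from PF. For this reason the comparison was repeated with PF replicate 1 alone. In that fit the spread comes from the 3 DNP samples only, and the lone PF sample is assumed to vary like them, so it is a limited check on stimulation time. No source states whether replicates came from separate cultures, so p-values measure only the spread between these samples, which may be technical.

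MCs carry IgE on the high-affinity receptor FcεRI. When antigen cross-links this IgE, the kinases Lyn and Syk start a cascade of calcium entry and MAPK activity, stored granules are released within minutes, and transcription follows. Immediate early factors such as Fos and the Egr family are made first, then cytokines and chemokines. NF-κB, NFAT and STAT factors also act on these genes, and phosphatases of the Dusp family and proteins of the Socs family limit the signal.

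Expression was given as 1 FPKM value per gene and sample (fragments normalized to gene length and to the mapped total), with values for 18006 genes. Their sums were 573023 to 582577 FPKM in DNP and 610206 to 630069 FPKM in PF, and the 10 genes with the highest values took 6.85% to 6.89% and 7.43% to 7.67% of these sums. The number of reads is unknown, because FPKM holds no counts. Of the 12 mast cell and basophil markers, 10 had values and each of these reached at least 1 FPKM, with a summed level of 5370 to 5470 FPKM in DNP and 5530 to 5740 FPKM in PF. Markers of B cells, macrophages, neutrophils, fibroblasts and epithelial cells with values were below 1 FPKM in all 6 samples. The T cell marker Cd3d and the erythroid marker Hbb were listed at 0 in all 6, but other markers of these cell types were not. Above 1 FPKM were 1 of 5 T cell markers with values (Cd3e), 2 of 3 endothelial markers (Pecam1 and Tek) and 1 of 5 erythroid markers (Hba2). The endothelial sum, mostly Pecam1, was 62.6 to 68.4 FPKM in DNP and 50.0 to 55.1 FPKM in PF. The erythroid sum, mostly Hba2, was 172 to 183 FPKM in DNP and 250 to 274 FPKM in PF. Their part in the results below was not tested.

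Genes were tested with limma on log2(FPKM + 1), with p-values adjusted by the Benjamini-Hochberg method over the 10329 genes that reached 1 FPKM in at least 3 of the 6 samples. Every log2 fold change below is the mean of PF minus the mean of DNP on this scale, on which changes of weakly expressed genes look smaller than they are. "Higher", "lower", "rose" and "fell" are used where the adjusted p was 0.05 or below. In bulk RNA, a change in the number of cells that express a gene and a change in its RNA per cell cannot be told apart.

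PF separated from DNP across the transcriptome. Of the 10329 genes, 5042 passed the test (48.8%), with 1870 higher in PF (18.1%) and 3172 lower (30.7%). Every count of list members below is to be read beside these shares of all tested genes. Most changes were small, since 4798 of the 5042 had an absolute log2 fold change below 1. The larger changes went mostly down: 215 genes fell by at least 1 on the log2 scale (2.08% of those tested) and 29 rose by at least 1 (0.281%). All 3 PF samples were above all 3 DNP samples for 2299 tested genes and below them for 3654. The balance of small changes depended on the scaling of the samples. As deposited, 37.1% of the called genes were higher, and the tested genes had a median log2 fold change of -0.04. Scaling by median ratios gave 50.8% and a median of 0.02, with 2715 higher and 2628 lower of 10312 tested genes. Scaling that brings every sample to the same sum of FPKM, called equal-sum scaling below, gave 16.8% and a median of -0.13. It left 869 higher and 4306 lower of 10328 tested genes. Counts of list members under either scaling are to be read beside these counts of all tested genes. With PF replicate 1 alone, 1178 genes were higher and 2455 lower.

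**Figure D1:**
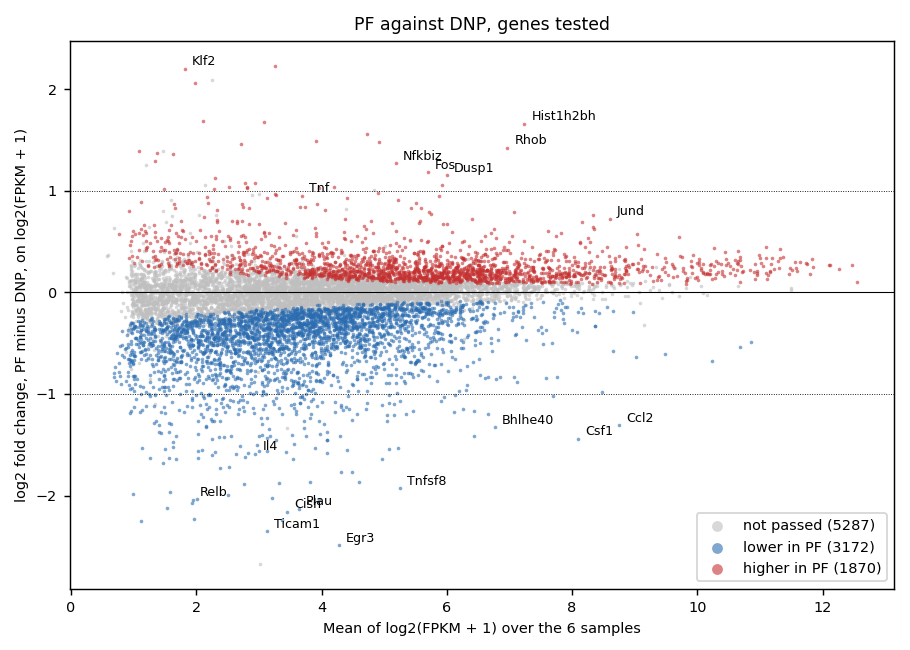
Log2 fold change (PF minus DNP, on log2(FPKM + 1)) of the 10329 tested genes against their mean log2(FPKM + 1) over the 6 samples. Blue points are the 3172 genes lower in PF, red points the 1870 higher and grey points those that did not pass; dotted lines mark a log2 fold change of 1 in either direction, and most called genes lie between them.

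The 15 lowest and 15 highest changes, provisional symbols such as LOC left out, span signalling, cytokine and chromatin genes. At the low end stood Egr3, an immediate early zinc finger factor (log2 fold change -2.49 ± 0.0618 SE, adjusted p = 6.02e-08), and Ticam1, the adaptor that links Toll-like receptors to interferon and NF-κB signalling (-2.35 ± 0.0890, adjusted p = 3.96e-07). Ticam1 was at 19.1, 18.5 and 18.8 FPKM in DNP and at 2.42, 3.40 and 2.86 FPKM in the PF samples. Others of these 15 were Cish, Socs3 and Relb, taken up below, Plau (urokinase, -2.13), Myct1 (-2.24), Tspan15 (-2.07), Nipal1 (-2.03), Adnp2 (-1.99), Tlr13 (-1.97), Tnfsf8 (CD30 ligand, -1.93) and Rfxapl1 (-2.12). Spt1 and Apbh were listed at 0 in every PF sample and varied widely in DNP, between 2.33 and 6.65 FPKM for Spt1 and between 1.06 and 8.09 FPKM for Apbh. Both passed the filter through DNP alone, as did Tlr13, which was at 0.40 to 0.59 FPKM in PF.

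Klf2, a zinc finger factor known for restraining NF-κB-driven inflammation, had the largest rise among these named genes (2.2 ± 0.119 SE, adjusted p = 1.88e-06). It was below 1 FPKM in every DNP sample, at 0.920, 0.590 and 0.460 FPKM, and reached 7.17, 6.77 and 5.84 FPKM with PF. Klf2 thus passed the filter through PF alone. Rhob, a small GTPase of endosomes and the actin cytoskeleton, was at 77.8, 72.4 and 76.4 FPKM in DNP and at 209, 213 and 189 FPKM in PF (1.42 ± 0.05, adjusted p = 2.84e-07). Other rises in this group belonged to 6 histone genes and to Nfkbiz, Fos, Dusp1, Rwdd2a, Sowahc and Sync. In the Ctrl samples, Klf2 and Rhob were at 0.320 to 0.530 and 60.4 to 63.5 FPKM, near or below the DNP samples.

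**Figure D2:**
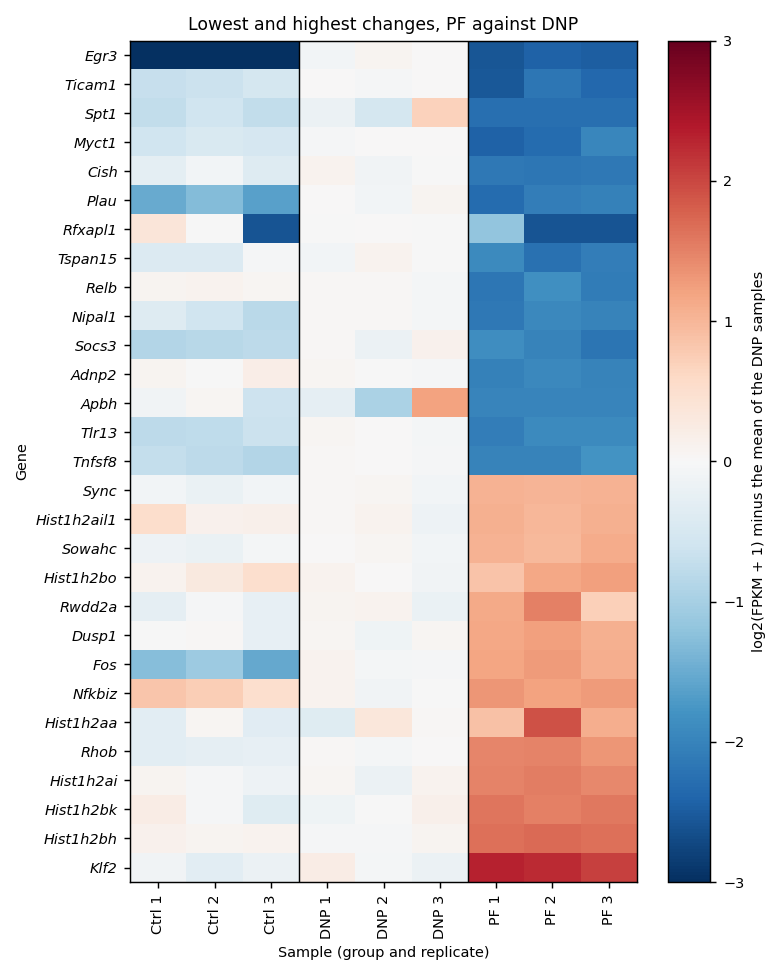
Heat map of the 15 lowest and 14 of the 15 highest changes in PF against DNP; rows are genes, columns the 9 samples, and the colour is log2(FPKM + 1) minus the mean of the DNP samples (scale from -3 to 3). The 3 PF columns are alike in direction for every gene, and Spt1, Apbh and Rfxapl1 vary within a group.

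Several cytokine and chemokine transcripts, the late products of MC activation, were lower with PF. Of 15 tested cytokine and growth factor genes, 9 fell (60%, beside 30.7% of all tested genes) and 3 rose (20%, beside 18.1%), with a median log2 fold change of -0.78 against -0.04 for all tested genes. Il4, the cytokine that drives Th2 responses, was at 11.8, 12.7 and 12.5 FPKM in DNP and at 2.55, 3.71 and 4.22 FPKM in the PF samples (-1.59 ± 0.127 SE, adjusted p = 1.68e-05). The PF values lay above the Ctrl values of 2.26 to 2.47 FPKM. Il3, a growth factor of basophils and MCs, was 17.7, 21.1 and 21.5 FPKM in DNP and 6.63, 7.94 and 7.42 FPKM in PF (-1.34), and Il13, which acts on airway and epithelium, 11.2, 12.4 and 14.3 FPKM against 5.19, 5.93 and 5.37 FPKM (-1.07). In both cases the groups did not overlap and the PF samples were above the Ctrl samples. Csf1, the macrophage growth factor, differed in this respect: it was at 443 to 455 FPKM in DNP, at 163 to 168 FPKM in PF and at 307 to 337 FPKM in Ctrl, so that PF lay below both. Osm (-1.17), Tnfsf8 (-1.93), Tnfsf9 (-0.90), Hbegf (-0.78) and Lif (-0.39) also fell. Tnfsf9 and Hbegf were below 1 FPKM in every PF sample and passed the filter through DNP, and with 1 FPKM required in all 6 samples 7 cytokine genes fell and 3 rose.

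Tnf went the other way. It was at 9.24, 7.49 and 8.15 FPKM in DNP and at 20.7, 15.4 and 15.2 FPKM in the PF samples, a 2.06-fold rise (log2 fold change 0.95 ± 0.117 SE, adjusted p = 0.000214). Vegfb (0.42) and Tgfb1 (0.15) were the other cytokine genes that rose, and Tgfb1 lost its call with equal-sum scaling. Of 5 tested chemokines, 3 fell (60%) and 1 rose (20%), which became 1 and 1 with 1 FPKM required in all 6 samples. Ccl2, which recruits monocytes, was at 650, 669 and 710 FPKM in DNP and at 247, 276 and 296 FPKM in PF (-1.31 ± 0.0630, adjusted p = 1.06e-06), against 212 to 242 FPKM in Ctrl. Ccl7 (-1.05), which passed the filter through DNP, and Cxcl10 (-0.78) fell from low levels, and Ccl9 rose from 3.87 to 6.05 FPKM (0.53). Il6, Csf2, Ccl3 and Ccl4 stayed below the 1 FPKM limit in most samples and were not tested, and Il5 had no value.

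The promoters of Il4 and Tnf are shown because these cytokine genes moved in opposite directions. Each is the 250 bases before the annotated start in the GRCr8 assembly, from RefSeq, written 5′ to 3′ on the gene's strand, with matches to the core of the NFAT site, GGAAAA on either strand, in capitals. Il4 lies at chr10:38277550-38277799 (minus strand) and Tnf at chr20:3626435-3626684 (plus strand).
Il4: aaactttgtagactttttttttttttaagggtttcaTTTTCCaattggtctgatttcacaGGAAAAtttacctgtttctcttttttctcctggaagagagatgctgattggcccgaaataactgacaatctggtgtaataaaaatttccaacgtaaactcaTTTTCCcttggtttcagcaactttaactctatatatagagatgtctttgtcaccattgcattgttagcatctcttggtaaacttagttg
Tnf: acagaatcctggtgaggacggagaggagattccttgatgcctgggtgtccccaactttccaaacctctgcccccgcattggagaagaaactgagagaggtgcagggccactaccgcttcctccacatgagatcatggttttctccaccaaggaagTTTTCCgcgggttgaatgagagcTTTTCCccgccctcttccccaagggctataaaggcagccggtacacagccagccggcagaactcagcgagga
The Il4 window held 3 matches and the Tnf window 2. Such a match was found in 21.3% of all 27457 promoters, in 18.6% of those of the 8227 tested genes with an entry, in 35 of 154 promoters (22.7%) of genes that fell by at least 1 and in 5 of 18 (27.8%) of genes that rose by at least 1. These motifs were picked after the values were seen, and a match is a description of the letters only.

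Immediate early factors divided between both directions. Of 31 tested, 16 were lower in PF (51.6%, beside 30.7% of all tested genes) and 8 higher (25.8%, beside 18.1%), with a median of -0.25. Egr3 was at 42.0, 47.7 and 45.0 FPKM in DNP and fell 6.25-fold to 6.70, 7.58 and 7.28 FPKM in PF, while Ctrl was at 2.04 to 2.82 FPKM. Nr4a3, an orphan nuclear receptor, was at 3.33, 3.95 and 4.20 FPKM in DNP and at 0.660, 0.670 and 0.650 FPKM in PF (-1.54 ± 0.0943 SE, limma adjusted p = 3.72e-06). It passed the filter through DNP alone. The factors Maff (-1.73), Bhlhe40 (-1.33), Myc (-0.79), Atf3 (-0.62), Egr2 (-0.55), Fosl2 (-0.43) and Nr4a2 (-0.41) were lower as well. Bhlhe40 stood at 169 to 174 FPKM in DNP, 65.5 to 69.1 FPKM in PF and 178 to 185 FPKM in Ctrl, so its fall was from a level that Ctrl shared.

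Fos, Fosb and Egr1 were higher. Fos, which pairs with Jun proteins to form AP-1, was at 36.0, 32.1 and 32.5 FPKM in DNP and at 76.8, 83.2 and 72.3 FPKM in PF (1.18 ± 0.0605 SE, adjusted p = 1.39e-06). Egr1 was at 158, 176 and 174 FPKM in DNP and at 219, 221 and 238 FPKM in PF (0.41), and Fosb at 67.2, 68.8 and 69.8 against 84.9, 90.2 and 85.0 FPKM (0.33). Every PF sample was above every DNP sample for each of the 3, whose Ctrl levels were 10.8 to 15.1 FPKM (Fos), 3.35 to 4.00 FPKM (Egr1) and 1.57 to 2.49 FPKM (Fosb). Jund rose too, from 296 to 304 FPKM in DNP to 473 to 545 FPKM in PF (0.72), whereas Jun (-0.01, adjusted p = 0.787), Junb (0.09, adjusted p = 0.163) and Nr4a1 (-0.25, adjusted p = 0.0799) did not pass. Jun and Nr4a1 did pass as lower with equal-sum scaling, and Junb as higher with median ratio scaling. Within the Egr family, Egr1 was higher and Egr2 and Egr3 lower in the same samples.

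**Figure D3:**
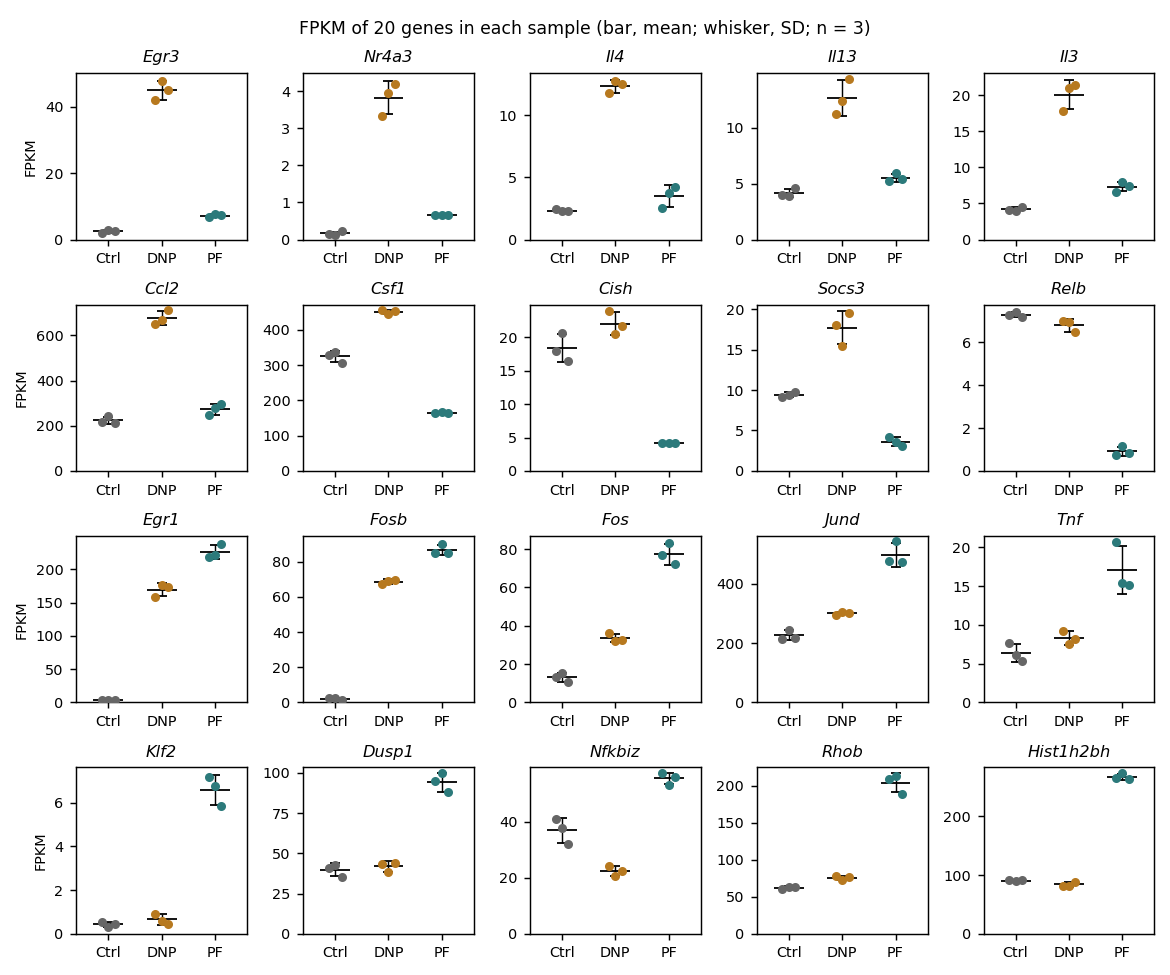
FPKM of 20 genes in the 3 Ctrl, 3 DNP and 3 PF samples; points are samples, the horizontal bar the mean and the whisker the SD (n = 3), and each panel has its own axis from 0. From Egr3 to Relb the PF samples lie below the DNP samples, and from Egr1 to Hist1h2bh they lie above them.

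Genes close to the receptor mostly changed by small amounts. Of 53 tested genes of FcεRI signalling, 23 were lower (43.4%, beside 30.7% of all tested genes) and 8 higher (15.1%, beside 18.1%), with a median of -0.10. The counts were 21 lower and 14 higher with median ratio scaling (median -0.04) and 31 lower and 1 higher with equal-sum scaling (median -0.20). Among the receptor chains, Fcer1g rose from 631 to 648 FPKM to 786 to 824 FPKM (0.34, adjusted p = 4.34e-05) and Fcer1a from 410 to 432 FPKM to 463 to 503 FPKM (0.18, adjusted p = 0.00416), the latter losing its call with equal-sum scaling, while Ms4a2 was at 456 to 468 and 469 to 486 FPKM (0.05, adjusted p = 0.21) and passed as higher with median ratio scaling. The kinases Lyn (-0.27) and Syk (-0.31) were lower. The larger falls were in Sh2b3, an adaptor that dampens cytokine receptor signals (-1.09), the inhibitory receptor Lilrb4 (-0.89), the kinase Prkce (-0.88) and the phosphatase Ubash3b (-0.81). Kit, the stem cell factor receptor, was at 234 to 241 FPKM in DNP and at 216 to 238 FPKM in PF (-0.06, adjusted p = 0.219), and it passed as lower with equal-sum scaling.

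Feedback regulators of the MAPK pathway were lower for the most part. Of 21 tested genes, 14 fell (66.7%, beside 30.7% of all tested genes) and 3 rose (14.3%, beside 18.1%), with a median of -0.34. The counts were 11 lower and 3 higher with median ratio scaling and 16 lower and 3 higher with equal-sum scaling. With 1 FPKM required in all 6 samples, 12 of 18 fell and 3 rose. Dusp4, a nuclear phosphatase that acts on ERK, was at 112, 113 and 112 FPKM in DNP and at 48.6, 49.1 and 52.8 FPKM in PF (-1.15 ± 0.0389 SE, adjusted p = 2.49e-07). Dusp6 (-0.75), Dusp2 (-0.96) and Spry4 (-1.04), which also limit ERK signalling, were lower. Dusp1, the phosphatase of p38 and JNK, rose instead, from 43.6, 38.1 and 43.9 FPKM to 95.1, 99.7 and 88.0 FPKM (1.15 ± 0.0637, adjusted p = 2.17e-06). Of the MAPK kinases themselves, 16 of 36 were lower (44.4%) and 4 higher (11.1%), with a median of -0.08. Map3k3 (-0.65) and Map2k3 (-0.57) were among the falls. Dusp1 is shown with its promoter, at chr10:17184603-17184852 (plus strand, GRCr8), because it moved against most of this group. The capitals mark the cyclic AMP response element TGACGTCA, which reads the same on both strands.
Dusp1: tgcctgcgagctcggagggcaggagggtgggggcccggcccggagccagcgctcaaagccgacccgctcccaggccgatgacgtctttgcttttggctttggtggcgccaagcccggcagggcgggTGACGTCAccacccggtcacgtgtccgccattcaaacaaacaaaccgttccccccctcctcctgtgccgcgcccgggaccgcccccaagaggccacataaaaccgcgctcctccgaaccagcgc
This element was found in 1.70% of all promoters, in 3.23% of those of tested genes, in 8 of 154 (5.19%) of the genes that fell by at least 1 and in 1 of 18 (5.56%) of those that rose by at least 1, Dusp1 being that one.

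Of 35 tested genes of cytokine signalling through JAK and STAT, 19 were lower (54.3%, beside 30.7% of all tested genes). Another 2 were higher (5.71%, beside 18.1%), and the median was -0.19. Cish, an inhibitor that STAT5 itself induces, was at 23.9, 20.5 and 21.7 FPKM in DNP and at 4.16, 4.11 and 4.21 FPKM in PF (-2.16 ± 0.0648 SE, adjusted p = 1.48e-07). Socs3 was at 18.1, 15.5 and 19.5 FPKM in DNP and at 4.15, 3.63 and 3.04 FPKM in PF (-2.02), and Socs1 at 17.3, 16.1 and 19.9 against 4.86, 6.87 and 4.41 FPKM (-1.57). All 3 inhibitors were also below their Ctrl levels, which were 16.5 to 20.7 FPKM for Cish, 9.12 to 9.81 FPKM for Socs3 and 16.7 to 18.0 FPKM for Socs1. Socs5 (-1.10) and the kinase Pim1 (-0.58), another STAT5 target, were lower. The Cish promoter, at chr8:116850719-116850968 (plus strand, GRCr8), is shown because Cish fell most in this group. Matches to the STAT motif TTCNNNGAA, which reads the same on both strands, are in capitals.
Cish: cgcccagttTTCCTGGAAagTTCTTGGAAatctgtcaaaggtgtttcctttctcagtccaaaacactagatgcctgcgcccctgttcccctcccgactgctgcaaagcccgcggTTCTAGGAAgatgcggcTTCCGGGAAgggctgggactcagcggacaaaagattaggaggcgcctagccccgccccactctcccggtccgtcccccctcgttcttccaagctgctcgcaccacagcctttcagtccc
The window held 4 matches. At least 1 match was found in 7.52% of all promoters, in 6.25% of those of tested genes, in 19 of 154 (12.3%) of the genes that fell by at least 1 and in 1 of 18 (5.56%) of those that rose by at least 1.

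NF-κB genes moved both ways. Of 30 tested, 15 were lower (50%, beside 30.7% of all tested genes) and 3 higher (10%, beside 18.1%), with a median of -0.27. The subunits Relb and Nfkb1 fell: Relb was at 7.0, 6.93 and 6.45 FPKM in DNP and at 0.730, 1.16 and 0.830 FPKM in PF (-2.04 ± 0.0982 SE, adjusted p = 1.06e-06), and Nfkb1 at 49.6, 49.9 and 51.2 against 19.1, 20.4 and 21.2 FPKM (-1.27). In the Ctrl samples they stood at 7.16 to 7.41 and 43.5 to 45.5 FPKM, well above PF. The deubiquitinase Otud7b (-1.53), the ubiquitin ligase Birc3 (-1.20) and the inhibitor Nfkbia (-0.37) were lower as well. The 3 that rose are inhibitors or modulators of the pathway: Nfkbiz, an atypical IκB, went from 24.3, 20.8 and 22.3 FPKM to 57.4, 53.3 and 56.0 FPKM (1.27 ± 0.0578, adjusted p = 8.25e-07), Nfkbid rose by 0.59 and the deubiquitinase Tnfaip3 (A20) by 0.55.

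Of 34 tested calcium and NFAT genes, 13 were lower (38.2%, beside 30.7% of all tested genes) and 6 higher (17.6%, beside 18.1%), with a median of -0.06, so these shares lay near those of all genes. The counts were 10 lower and 8 higher with median ratio scaling and 14 lower and 1 higher with equal-sum scaling. The factor Nfatc1 was at 19.8 to 20.2 FPKM in DNP and at 10.4 to 10.6 FPKM in PF (-0.87). Dyrk2, a kinase that phosphorylates NFAT, fell by 1.10, the calcium channel Orai2 by 0.81, the calcium release channel Itpr2 by 0.50 and the calcineurin regulator Rcan1 by 0.47.

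Interferon-related genes were mostly lower with PF. Of 28 tested, 18 fell (64.3%, beside 30.7% of all tested genes) and 0 rose (beside 18.1%) in limma, with a median of -0.30. At an unadjusted p below 0.05 in limma, 18 were lower and 1 higher. Irf2 was at 9.83, 10.2 and 9.94 FPKM in DNP and at 2.64, 3.03 and 2.89 FPKM in PF (-1.51 ± 0.0665 SE, adjusted p = 7.80e-07). The RNA sensor Ifih1 (-0.94) and the effectors Isg20 (-0.85) and Oasl (-0.84) were lower. With median ratio scaling 16 fell and 2 rose. In the MHC list, 6 of 21 tested genes rose (28.6%) and 3 fell (14.3%), which became 3 and 6 with equal-sum scaling. RT1-DMa (0.33) and the immunoproteasome subunit Psmb10 (0.35) were higher, while Rfx5, a factor for class II genes, fell by 1.60.

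MC lineage and effector genes moved to different degrees. Among 28 tested lineage genes, 15 were lower (53.6%, beside 30.7% of all tested genes) and 2 higher (7.14%, beside 18.1%), with a median of -0.18. Gata1 was at 55.6 to 58.1 FPKM in DNP and at 32.8 to 35.6 FPKM in PF (-0.71), Runx1 fell by 0.74, Fli1 by 1.18 and the receptor Gpr171 by 1.77. Of 16 tested granule genes, 5 were lower (31.2%, beside 30.7% of all tested genes) and 1 higher (6.25%, beside 18.1%), with a median of -0.01. The proteoglycan core Srgn (0.04, adjusted p = 0.466) and the protease Cpa3 (-0.05, adjusted p = 0.221) did not pass, though Cpa3 passed as lower with equal-sum scaling. Hdc, which makes histamine, was at 261, 253 and 250 FPKM in DNP and at 236, 234 and 222 FPKM in PF (-0.14, adjusted p = 0.00859), a call that was lost with median ratio scaling and with PF replicate 1 alone. Ndst2, which sulfates granule heparin, fell by 1.10, Gzmb by 0.64, Ddc by 0.47 and Tph1, for serotonin synthesis, by 0.30.

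Of 19 tested genes of eicosanoid synthesis, 6 were higher (31.6%, beside 18.1% of all tested genes) and 5 lower (26.3%, beside 30.7%). The share that was lower lay near that of all genes. With equal-sum scaling these counts were 3 and 6. Ptgs2, the inducible cyclooxygenase, was at 924, 885 and 850 FPKM in DNP and at 576, 535 and 633 FPKM in PF (-0.61), and the phospholipase Pla2g4a fell by 0.34. Ptges2, a prostaglandin E synthase, rose by 0.51. In the exocytosis list 10 of 34 genes were lower (29.4%, beside 30.7% of all tested genes) and 7 higher (20.6%, beside 18.1%). These shares lay near those of all genes, and the counts were 9 and 10 with median ratio scaling. Stx11 (-0.91) and Sytl2 (-0.41) fell and the granule SNARE Vamp8 rose by 0.42. Lysosomal genes had 15 of 44 higher (34.1%, beside 18.1% of all tested genes) and 9 lower (20.5%, beside 30.7%). With equal-sum scaling 4 were higher and 17 lower, beside 869 higher and 4306 lower of all 10328 genes tested with that scaling. The larger changes were falls, as Ctsk fell by 0.99, the factor Tfe3 by 0.69 and Naglu by 0.58. The highest log2 fold change in this list was 0.28.

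Histone genes stood out among the strong rises, and their list was drawn up after the values were seen. Of 32 tested genes of the histone clusters, 24 rose (75%, beside 18.1% of all tested genes) and 3 fell (9.38%, beside 30.7%). Their median was 0.62, and they made up 9 of the 29 genes that rose by at least 1. The counts were the same under both other scalings. Hist1h2bh was at 82.0, 81.7 and 88.6 FPKM in DNP and at 265, 274 and 264 FPKM in PF, a 3.18-fold rise (1.66 ± 0.0388 SE, adjusted p = 6.02e-08). Hist1h2bk rose from 13.0, 14.3 and 15.9 FPKM to 45.5, 42.7 and 44.6 FPKM (1.56). Ctrl samples were near DNP for both, at 89.2 to 91.9 and 10.9 to 16.8 FPKM. Hist3h2a (-1.06), Hist1h2ao (-0.59) and the linker histone Hist1h1c (-0.20) were the 3 that fell. The 8 tested variant histones had 4 higher and 2 lower (2 and 2 with equal-sum scaling), with H2afj up by 0.45 and H1f0 down by 0.49. The summed share of the cluster genes went from 0.114% to 0.121% of all FPKM in DNP to 0.155% to 0.161% in PF. Most mRNAs of cluster histones lack a poly(A) tail, and how mRNA was selected is not given in the sources used here. Many of these genes are nearly identical, so the split of reads among them is uncertain.

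Promoters of Hist1h2bh, at chr17:41869342-41869591 (minus strand), and Hist1h2bk, at chr17:47181941-47182190 (minus strand), both in GRCr8, are shown because these histone genes had the largest log2 fold changes outside provisional symbols. Capitals mark the letters CCAAT on either strand and, in Hist1h2bk, the letters TATAAA on either strand. The TATAAA match in Hist1h2bk is on the opposite strand, near the end of the window farthest from the start.
Hist1h2bh: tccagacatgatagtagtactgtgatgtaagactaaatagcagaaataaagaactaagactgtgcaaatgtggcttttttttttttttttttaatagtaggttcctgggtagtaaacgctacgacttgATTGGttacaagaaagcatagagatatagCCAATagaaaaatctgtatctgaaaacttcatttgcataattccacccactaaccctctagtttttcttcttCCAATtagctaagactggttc
Hist1h2bk: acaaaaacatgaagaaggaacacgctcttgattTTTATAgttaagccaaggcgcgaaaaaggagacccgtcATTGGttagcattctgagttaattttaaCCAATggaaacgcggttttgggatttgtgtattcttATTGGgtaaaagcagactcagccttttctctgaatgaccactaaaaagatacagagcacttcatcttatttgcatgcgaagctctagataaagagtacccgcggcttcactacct
Each window held 3 CCAAT matches. A CCAAT match was found in 28 of 30 promoters (93.3%) of tested cluster histone genes, 34.3% of all promoters and 37.0% of those of tested genes. It was found in 12 of 18 (66.7%) of the genes that rose by at least 1 and 52 of 154 (33.8%) of those that fell by at least 1. Histone genes made up 9 of the 29 genes that rose by at least 1, so these sets overlap. A TATAAA match was found in 15 of the 30 (50.0%), in 13.1% of all promoters and in 6.24% of those of tested genes. The search took any position in the window and either strand, so a TATAAA match need not be a TATA box.

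Most genes of translation and respiration rose by small amounts. Of 79 tested cytosolic ribosomal protein genes, 74 were higher (93.7%) and 0 lower in limma (75 and 0 at an unadjusted p below 0.05). Their median was 0.25. Rpl36 was at 1188, 1204 and 1216 FPKM in DNP and at 1560, 1738 and 1474 FPKM in PF (0.40), and Rps28 rose by 0.38. Their summed share went from 23.2% to 23.8% of all FPKM in DNP to 25.7% to 26.9% in PF, while in Ctrl it was 23.8% to 25.1%. Of 70 tested respiratory chain genes, 59 were higher (84.3%) and 0 lower in limma (60 and 0 at an unadjusted p below 0.05). Their median was 0.24, and they were led by Cox7a2 (0.55), Uqcr10 (0.53), Uqcrq (0.43) and Cox6c (0.40). With equal-sum scaling, these counts were 60 higher and 0 lower for ribosomal proteins and 45 higher and 2 lower for the respiratory chain. Ribosomal protein genes have many near-identical copies, so their share of reads per gene is uncertain. The PF samples were also those in which the 10 highest genes took more of the sum, and the part of this in the rise was not tested.

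Of 43 proteasome genes, 24 were higher (55.8%) and 4 lower (9.3%), with a median of 0.10. With equal-sum scaling 11 were higher and 6 lower (median 0.00). Pomp, the assembly factor, was up by 0.41 and Psmd5 down by 0.49. Genes of ribosome assembly had 17 of 64 higher (26.6%) and 7 lower (10.9%), which became 7 higher and 16 lower with equal-sum scaling. The larger changes were falls, in Taf1d (-0.48) and Wdr74 (-0.44), while Dkc1 and Nhp2, both parts of the H/ACA complex, rose by 0.39 and 0.30. Aminoacyl-tRNA synthetases had 5 of 22 higher (22.7%) and 7 lower (31.8%), near the shares of all genes (8 and 4 with median ratio scaling). Mars (-0.39) and Iars (-0.34) were among the falls.

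Metabolic lists differed from one another. Of 31 cholesterol genes, 14 were higher (45.2%) and 6 lower (19.4%), a split that was 8 and 10 with equal-sum scaling. Lbr, a sterol reductase that also anchors the nuclear lamina, fell by 0.32. Glycolysis and pentose phosphate genes had 11 of 35 higher (31.4%) and 4 lower (11.4%), which became 7 and 7 with that scaling. Gapdh was up by 0.28 and the regulator Pfkfb3 down by 0.53. In the serine, one-carbon and amino acid list, 14 of 30 were lower (46.7%) and 3 higher (10%), with a median of -0.10. Chac1, a glutathione-degrading enzyme of the stress response, was at 44.8, 45.7 and 46.1 FPKM in DNP and at 11.2, 12.5 and 11.4 FPKM in PF (-1.87 ± 0.0487 SE, adjusted p = 6.02e-08). Slc7a1 (-0.57), Trib3 (-0.62), Sesn2 (-0.44) and the cystine transporter Slc7a11 (-0.35) were lower, too.

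Stress lists were mixed. Of 37 genes of the unfolded protein response, 10 were lower (27%, beside 30.7% of all tested genes) and 8 higher (21.6%, beside 18.1%). These shares lay near those of all genes, and the counts were 8 and 16 with median ratio scaling. Xbp1, its central factor, was at 99.5, 98.7 and 95.7 FPKM in DNP and at 46.2, 48.5 and 49.9 FPKM in PF (-1.01), and Ddit3 (-0.58), Derl3 (-0.80) and the sensor Eif2ak3 (-0.46) fell. Heat shock genes had 12 of 32 higher (37.5%) and 6 lower (18.8%), with Dnajb5 down by 1.11. With equal-sum scaling 4 were higher and 11 lower. Of 39 NRF2 targets, 16 were higher (41%) and 8 lower (20.5%), which became 9 and 10 with that scaling. The larger changes were falls, in Osgin1 (-0.82) and Srxn1 (-0.71). Hmox1 did not pass (0.10, limma adjusted p = 0.0545), though all PF samples were above all DNP samples. It passed as higher with median ratio scaling, with all 3 groups in the fit, with a replicate block and without DNP replicate 1.

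Lists of cell fate differed. In the apoptosis list 13 of 32 were lower (40.6%, beside 30.7% of all tested genes) and 7 higher (21.9%, beside 18.1%), which became 11 and 9 with median ratio scaling and 14 and 1 with equal-sum scaling. The survival factor Mcl1 was at 192, 184 and 188 FPKM in DNP and at 97.0, 98.7 and 109 FPKM in PF (-0.88), and Bcl2 (-0.66) and Casp8 (-0.67) were lower. Of 25 p53 targets, 14 were lower (56%) and 1 higher (4%), with a median of -0.35. Tp53inp1 (-0.89), Tigar (-0.89), Polk (-0.87) and Cdkn1a (-0.52) were among the falls. In the G2/M list 32 of 70 were lower (45.7%) and 5 higher (7.14%), with a median of -0.12. Plk1 was down by 0.64, Ect2 by 0.57 and Kif18a by 0.51. DNA replication and G1/S genes had 21 of 68 lower (30.9%) and 10 higher (14.7%), close to the shares of all genes (13 and 20 with median ratio scaling, 36 and 3 with equal-sum scaling), and Cdkn1b, an inhibitor of the cycle, fell by 0.77. The MYC network had 8 of 15 lower (53.3%) and 3 higher (20%), Mnt (-0.73) and Mxi1 (-0.56) falling beside Myc.

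Lists of RNA synthesis and chromatin also differed. Of 49 chromatin repressors and modifiers, 22 were lower (44.9%, beside 30.7% of all tested genes) and 3 higher (6.12%, beside 18.1%; median -0.16). Kdm6b, a histone demethylase, was at 14.97, 14.2 and 14.6 FPKM in DNP and at 5.81, 5.79 and 5.78 FPKM in PF (-1.20), and Kdm2a (-0.67), Hdac5 (-0.59) and Hdac4 (-0.57) were lower. Of 31 genes around BET proteins and the elongation factor P-TEFb, 14 were lower (45.2%) and 8 higher (25.8%). These counts became 11 and 11 with median ratio scaling and 17 and 5 with equal-sum scaling. Brd2 rose from 32.0, 32.8 and 29.0 FPKM to 56.7, 62.3 and 50.4 FPKM (0.83 ± 0.0757 SE, adjusted p = 3.72e-05), whereas Mepce, which caps the RNA that holds P-TEFb inactive, fell by 1.30 and Cdk7 by 0.58. Hexim1, the inhibitor of P-TEFb, was at 14.2 to 16.7 FPKM in DNP and at 12.6 to 14.3 FPKM in PF (-0.17, limma adjusted p = 0.0673). It passed as lower with equal-sum scaling. Of 31 mRNA decay genes, 12 were lower (38.7%) and 6 higher (19.4%), near the shares of all genes, with Zfp36l1 (-1.03) and Btg1 (-0.83) falling and Tob1 rising by 0.81. Genes named Zfp with a number are mostly zinc finger repressors and again a list made after the values were seen. They had 81 of 150 lower (54.0%) and 7 higher (4.67%), with a median of -0.30. Among the falls were Zfp455 (-1.59), Zfp628 (-1.41) and Zfp458 (-1.40). Clock genes had 9 of 16 lower (56.2%) and 1 higher (6.25%), with a median of -0.27. The falls included Nr1d2 (-1.24), Nr1d1 (-0.97) and Nfil3 (-0.89) beside Bhlhe40.

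Actin and adhesion genes had 15 of 44 higher (34.1%, beside 18.1% of all tested genes) and 10 lower (22.7%, beside 30.7%). The split was 7 and 16 with equal-sum scaling. Rhob stood apart from the rest of this list. Lgals1 rose by 0.33, Actb by 0.19 and S100a4, at low levels, by 0.70, and the integrin Itga6 fell by 0.29.

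**Figure D4:**
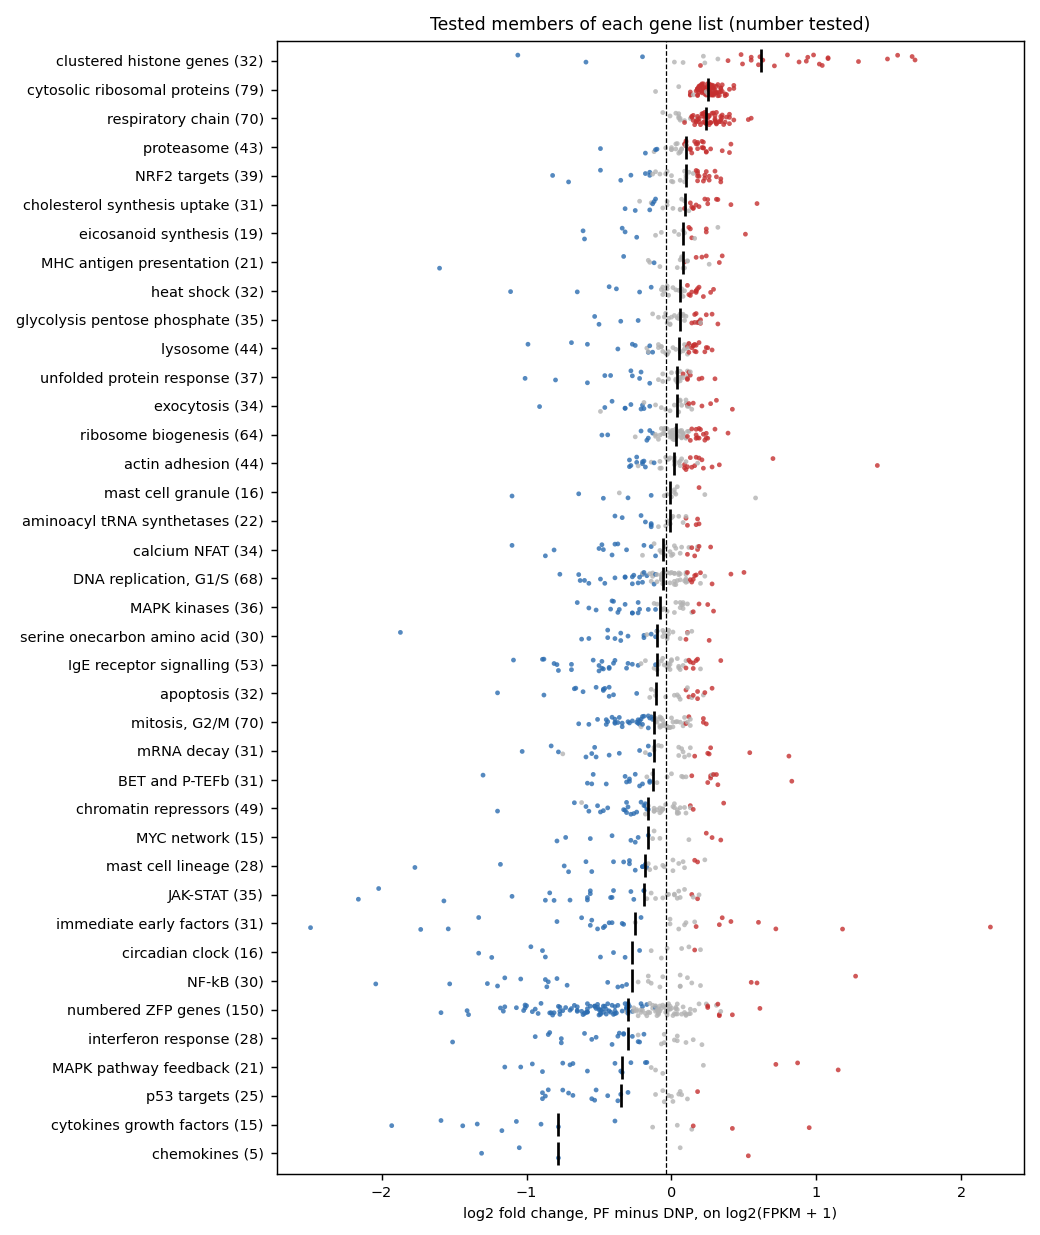
Log2 fold change (PF minus DNP, on log2(FPKM + 1)) of each tested member of each gene list, with the number tested in brackets; blue, red and grey points are lower, higher and not passed, black bars are list medians and the dashed line is the median of all tested genes (-0.04). Medians run from -0.78 for chemokines and cytokines to 0.62 for cluster histones, and cytosolic ribosomal proteins form a narrow band around 0.25.

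**Figure D5:**
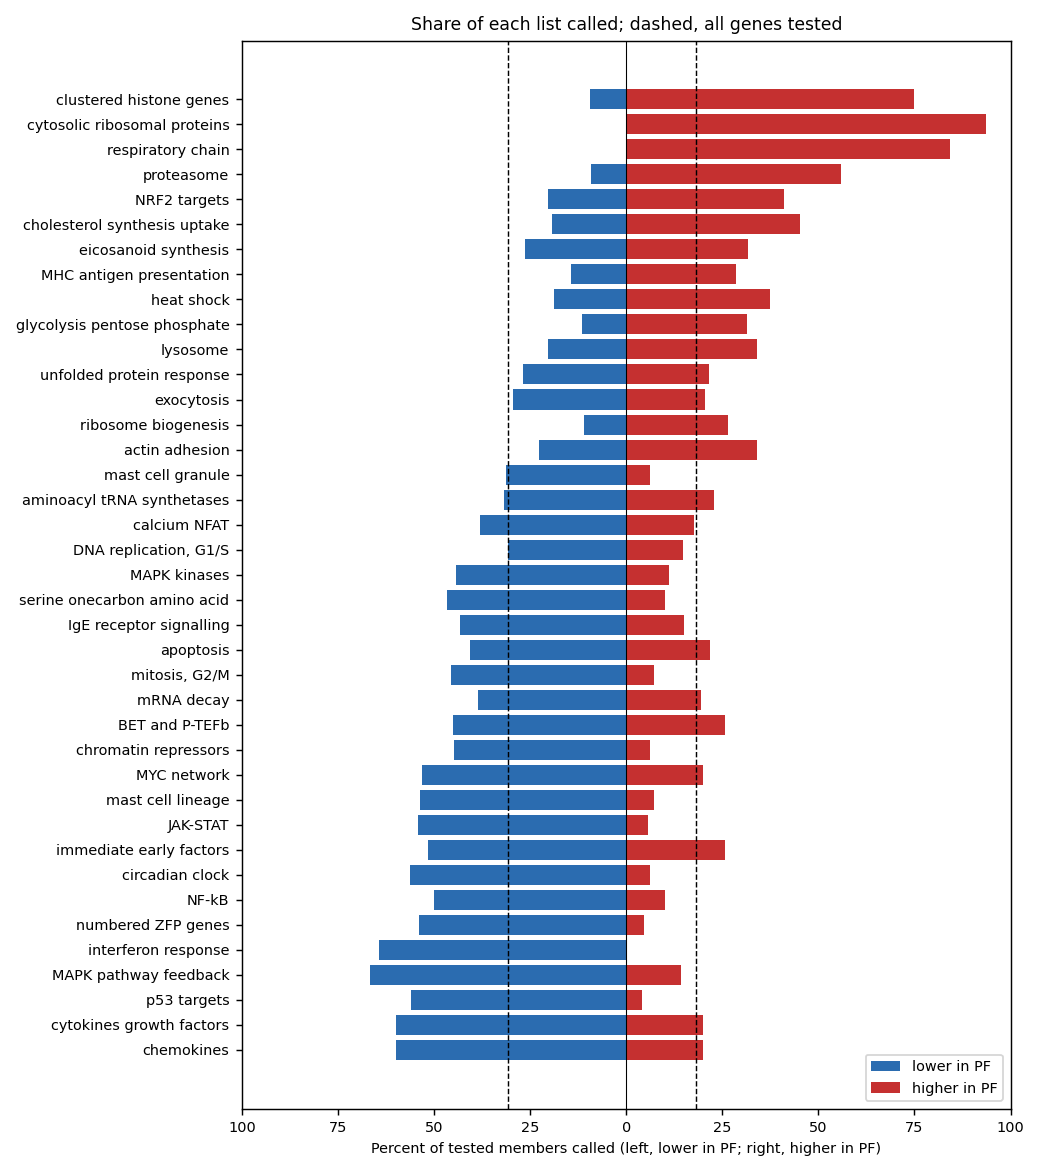
Percent of the tested members of each list that were lower (left) or higher (right) in PF, with dashed lines at the shares of all tested genes, 30.7% lower and 18.1% higher. Ribosomal proteins have the highest share on the right (93.7%), and feedback regulators of the MAPK pathway (66.7%) the highest on the left, followed by interferon genes (64.3%). Shares are from the values as deposited, and the order on the left depends on the scaling.

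In single-gene exact permutation tests, two-sided, genes whose 3 PF and 3 DNP samples did not overlap had p = 0.1, which is the smallest that 3 samples against 3 can give. For these genes the calls above therefore rest on limma's spread shared across genes.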

How the data were processed

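By the study's methods and the submitters' processing notes, the authors filtered reads with SOAPnuke, mapped them with HISAT2 2.0.4 and quantified genes with RSEM 1.2.12 on Bowtie2 2.2.5 alignments to rn6. The values the authors deposited were read as FPKM, although the file headers name no unit. The labels name Illumina library protocols and the methods a BGISEQ sequencer. Of 38490 genes listed, 20484 had no value and 18006 were used, joined by gene ID.

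The design allowed a count test if the files held counts. They did not, so log2(FPKM + 1) of the 3 PF and 3 DNP samples was fitted with limma 3.58.1 under R 4.3.3, two-sided, using a trended eBayes prior. The filter of 1 FPKM in 3 of the 6 samples left 10329 genes, over which p-values were adjusted by Benjamini-Hochberg. The code was checked on made-up data with known changes. Precision rests on the 3 replicates, since depth in reads is unknown. Same-numbered PF and DNP samples did not deviate together (correlations of 0.00049, -0.0822 and -0.0262), and every sample was nearest to one of its own group.

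The samples compared and the 37 gene lists were chosen with earlier results of these data known. Named genes are the 15 lowest and 15 highest log2 fold changes among called genes (adjusted p up to 0.05) that changed by 1 or more on the log2 scale, had non-overlapping groups and a mean from 1 FPKM upward, and carried no LOC, RGD or AABR symbol, up to 4 called members of each list (more where a list is described member by member), and fixed mast cell genes. Some genes that this rule names are not reported here. The lists of histone and numbered Zfp genes were added after the values were seen. Gene IDs were matched to the RefSeq table for 16606 of 18006 genes, and 8227 tested genes had a promoter entry (GRCr8), a build other than that of the files.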

Additional observations from a re-analysis of the deposited data

How the results depend on the processing

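As reported, 5042 genes were called, 1870 of them higher and 3172 lower in PF, and 29 rose and 215 fell by at least 1 on the log2 scale. Fewer genes were higher with every sample scaled to the same FPKM sum (869), with PF replicate 1 alone (1178) and with an adjusted p of at most 0.01 (1101), the last being a stricter threshold by construction. A pseudocount of 0.1 in place of 1 gave 439 genes past the fold minimum (49 higher, 390 lower), as it enlarges the changes of low genes. With 1 FPKM required in all 6 samples, 194 genes were past the fold minimum (22 higher, 172 lower). Leaving out each sample in turn gave 4138 to 4796 genes called, 1499 to 1726 higher, 2626 to 3070 lower, and 220 to 264 past the fold minimum (25 to 36 higher, 184 to 232 lower). The PF and DNP samples share replicate numbers but were not paired by them. A replicate block gave 4675 genes called and 249 past the fold minimum. It changed the call of 1 of 212 named genes, Hmox1, which then passed as higher. No named gene reversed under any setting run. With PF replicate 1 alone, 13 of 209 named genes lost their call, among them Syk, Fcer1a, Hdc, Ptges2, S100a4, Derl3 and Apbh. Junb passed as higher without PF replicate 3 and Hexim1 as lower without DNP replicate 2. Count tests by DESeq2 and edgeR were not run, since no counts were given.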

Other observations

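Aph1b, a subunit of γ-secretase, was listed at 0 in PF replicates 1 and 3 and at 32.0 FPKM in PF replicate 2, beside 13.4, 19.1 and 28.3 FPKM in the DNP samples (log2 fold change -2.67, limma adjusted p = 0.0846). Txnip, which responds to glucose, was at 221 to 229 FPKM in DNP, 197 to 208 FPKM in PF and 410 to 419 FPKM in Ctrl (PF against DNP -0.15, limma adjusted p = 0.00389). Cxcr4, a chemokine receptor, was at 34.8 to 37.0, 30.0 to 32.9 and 87.3 to 95.4 FPKM in the same groups (-0.17, limma adjusted p = 0.0163), a call that was lost with median ratio scaling, with PF replicate 1 alone and without DNP replicate 1.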
